A study of Mus musculus with 6 samples.

Results

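The genes described here are 8 alpha and beta tubulins, Tuba1a, Tuba1b, Tuba1c, Tuba4a, Tubb2a, Tubb4b, Tubb5 and Tubb6, found by their symbols among the 14416 genes of the deposited count table. All 8 passed the filter on low counts and were among the 11382 genes tested. RNA was measured by Smart-seq2 in lung innate lymphoid cells (ILCs), lymphocytes without rearranged antigen receptors, sorted as Lin-Thy1.2+ cells from C57BL/6J mice. There were 3 libraries from Rbm3 knockout mice (RBM3KO) and 3 from wild-type mice (WT), and both genotypes had been given the mould allergen Alternaria alternata, 25 µg on each of 3 occasions within 7 days. The sources used here do not give the making of the knockout allele, the age of the mice or whether each library came from its own animal. The p-values can therefore only speak for the spread among these 6 libraries, part of which may be technical. The 8 genes were selected from a list drawn up with results of this same contrast known. Their fold changes and calls are therefore given as a description, and the share of all tested genes with the same call stands beside each count.

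Microtubules are hollow polymers of heterodimers of alpha and beta tubulin. They form the mitotic spindle, carry intracellular transport and position the centrosome and secretory apparatus of lymphocytes. Mammals encode several isotypes of each subunit, which are closely alike in their globular bodies and differ mostly in their C-terminal tails, where the enzymes that modify tubulin act. Cells also control tubulin mRNA by autoregulation, in which a rise in free dimers leads to the decay of tubulin mRNAs during their translation, with TTC5 recognising the emerging tubulin chain.

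The isotypes are so alike in sequence that reads of some cannot be assigned with certainty. Coding sequences (GENCODE M21, mouse build mm10) were 98.3% identical between Tuba1a and Tuba1b, 97.1% between Tuba1a and Tuba1c and 97.9% between Tuba1b and Tuba1c. These 3 genes also neighbour each other on chromosome 15, Tuba1b at chr15:98931425-98934565 and Tuba1a at chr15:98949837-98953703 on the minus strand and Tuba1c at chr15:99029891-99038110 on the plus strand. Tuba4a (chr1:75214228-75219865) was 84.8% to 85.2% identical to them, and the beta genes were 80.2% to 84.5% identical to each other. Of all 50-base windows of the transcript, 75.5% in Tuba1a, 83.1% in Tuba1b and 61.0% in Tuba1c also occurred exactly in a transcript of another gene. The share was 49.6% in Tubb2a (chr13:34074274-34078007), mostly with Tubb2b, and 55.5% in Tubb4b (chr2:25222160-25224702), mostly with its pseudogene Tubb4b-ps1. Tubb5 (chr17:35833921-35838306) shared 0.115% of its windows and Tubb6, on chromosome 18, shared 0%. In Tuba4a the share was 48.8%, almost all with the kinase gene Stk16, which overlaps it on the other strand, and within the coding sequence it was 2.39%. The sources used here give neither the strand setting nor the treatment of reads with several matches, so counts of Tuba1a, Tuba1b, Tuba1c, Tubb2a and Tubb4b are uncertain as single values, and reads in the overlap of Tuba4a and Stk16 cannot be told apart.

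Total counts were 7498247 to 16936670 in the RBM3KO libraries and 13339633 to 25068137 in the WT libraries, with 11782 to 12654 genes detected per library. Levels are in CPM, a gene's count scaled to the size of its library. The limit that a count of 0 allows, 3 counts, lay between 0.120 and 0.400 CPM and covers counting error only. Rbm3 itself had 406, 375 and 235 counts in the RBM3KO libraries and 3649, 5336 and 7473 counts in the WT libraries (log2 fold change -3.45), so no library went against its label. All 10 ILC genes examined (Thy1, Il7r, Gata3, Id2, Il1rl1, Rora, Il2ra, Klrg1, Icos and Kit) were tested, and their summed level was 5159 to 5529 CPM in RBM3KO and 4343 to 4778 CPM in WT. Of these 10, 0 were called by edgeR or limma-voom, 3 were called higher by DESeq2 and 5 were higher at an unadjusted p under 0.05, and in 6 all RBM3KO libraries lay above all WT libraries. The shares of all tested genes with these last 3 patterns were 1.27%, 5.46% and 8.43%. The part of the ILC genes in the tubulin difference was not tested. Single genes are given as CPM after TMM scaling, and the summed level of a list as CPM relative to the total count alone. Log2 fold changes are RBM3KO minus WT from edgeR's quasi-likelihood test, with p-values adjusted over all tested genes and a threshold of 0.05.

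Among the alpha tubulins, Tuba1b, Tuba1c and Tuba4a were lower in RBM3KO ILCs, at 55.0%, 58.4% and 61.3% of the WT mean. Tuba1b, a broadly expressed alpha isotype, had 920.2, 761 and 778 CPM in the RBM3KO libraries, against 1633, 1414 and 1426 CPM in the WT libraries. Every RBM3KO library lay well below every WT library. The log2 fold change of Tuba1b was -0.86 (edgeR adjusted p = 0.00415, SE 0.10). As these are bulk samples, fewer cells of a type and less RNA per cell cannot be told apart. Tuba1c, also broadly expressed, stood at 165, 136 and 121 CPM in RBM3KO and at 282, 224 and 218 CPM in WT, again without overlap. Its log2 fold change was -0.78 (edgeR adjusted p = 0.0358, SE 0.14). Tuba4a, whose encoded protein lacks the C-terminal tyrosine that most alpha tubulins carry, had 237, 218 and 233.5 CPM in RBM3KO and 402, 354 and 369 CPM in WT. The RBM3KO libraries were close together and below all WT libraries, with a log2 fold change of -0.71 (SE 0.10) and an adjusted p of 0.00812 from edgeR. Stk16, with which Tuba4a overlaps, stood at 83.2 ± 4.53 CPM in RBM3KO and 90.8 ± 17.4 CPM in WT (SD, n = 3 each) and did not pass the test (edgeR adjusted p = 0.861, log2 fold change -0.13, SE 0.16). Tuba1a, the alpha isotype best known from postmitotic neurons, had 363, 292 and 274 CPM in RBM3KO and 391, 351 and 379 CPM in WT. RBM3KO replicate 1 lay inside the WT range, and the difference did not pass the test (edgeR adjusted p = 0.384, log2 fold change -0.27, SE 0.12).

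Among the beta tubulins, Tubb4b and Tubb5 were lower in RBM3KO, at 58.3% and 66.2% of the WT mean. Tubb5, the widely expressed beta isotype of dividing cells and the tubulin with the most counts here, had 1486, 1327 and 1275 CPM in the RBM3KO libraries and 2196, 1901 and 2083 CPM in the WT libraries. The genotypes did not overlap, and the log2 fold change was -0.60 (edgeR adjusted p = 0.0117, SE 0.09). Tubb4b, a broadly expressed isotype that is also abundant in cilia, had 354, 294 and 352.5 CPM in RBM3KO and 695, 537 and 486 CPM in WT. The WT libraries were spread more widely than the RBM3KO libraries but all lay above them, and the log2 fold change was -0.78 (edgeR adjusted p = 0.0267, SE 0.14). Tubb6, a minor beta isotype, had 107, 114 and 115 CPM in RBM3KO and 122, 132 and 176 CPM in WT. The genotypes were separated by a narrow gap, 1 WT library stood above the other WT libraries, and the difference did not pass the test (edgeR adjusted p = 0.365, log2 fold change -0.36, SE 0.15). Without that library, WT replicate 3, the log2 fold change was -0.18. Tubb2a, an isotype best known from the brain, was the lowest of the 8, with 24, 17.2 and 19.9 CPM in RBM3KO and 18.6, 21.6 and 25.3 CPM in WT. Its ranges overlapped almost fully (edgeR adjusted p = 0.943, log2 fold change -0.10, SE 0.28).

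**Figure D1:**
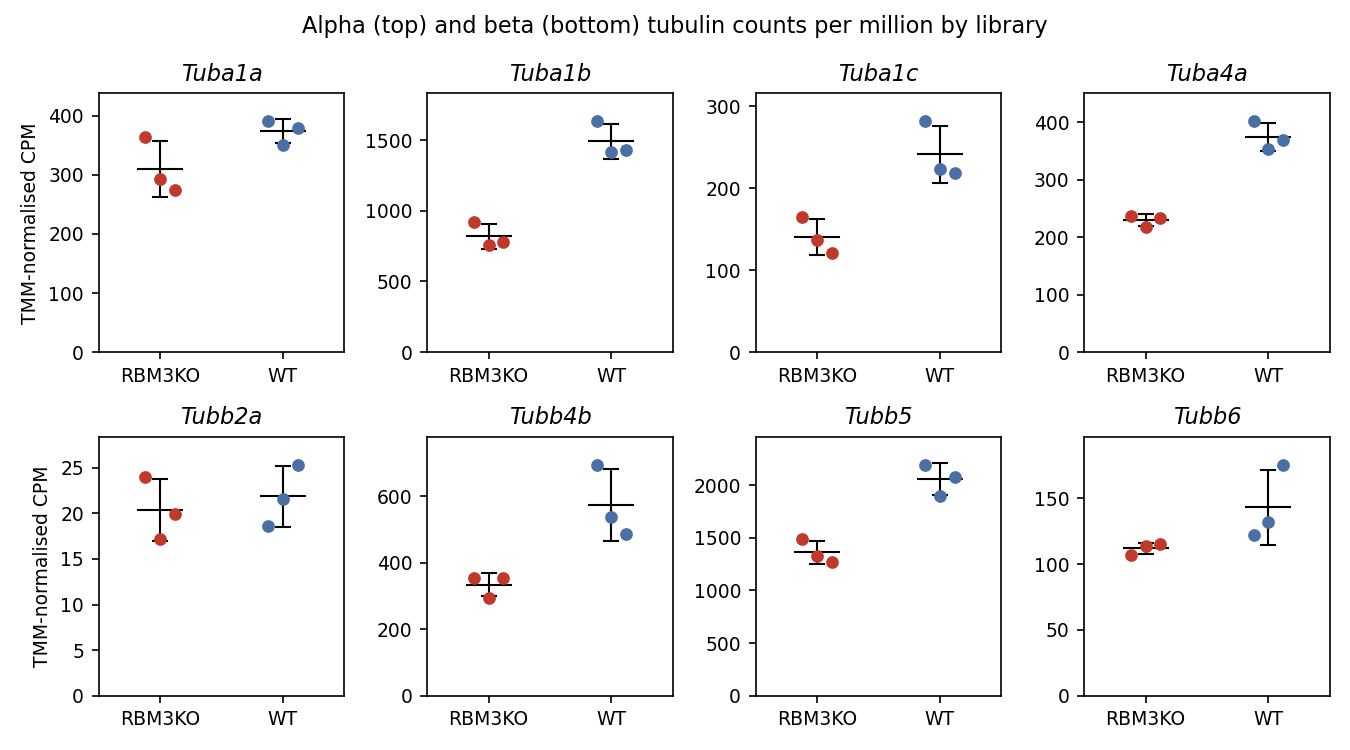
TMM-normalised CPM of each alpha tubulin (top row) and beta tubulin (bottom row) in the 3 RBM3KO libraries (red, left) and the 3 WT libraries (blue, right), with the mean and SD as black bars and each axis starting at 0. The RBM3KO libraries lie below all WT libraries in 6 panels, and the genotypes overlap in the Tuba1a and Tubb2a panels.

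Of the 8 tubulins, 5 were called lower in RBM3KO and 0 higher, where 1.00% of all tested genes were called lower and 0.246% higher. At an unadjusted p under 0.05, 7 were lower and 0 higher, where 6.87% of all tested genes were lower and 5.46% higher. DESeq2 and limma-voom each called 5 of the 8 lower and 0 higher, where DESeq2 called 2.22% of its tested genes lower and 1.27% higher, and limma-voom 1.25% lower and 0.492% higher. In 6 of the 8, all RBM3KO libraries lay below all WT libraries, a pattern shown by 10.5% of tested genes, and in 0 of the 8 they lay above, as in 8.43% of tested genes. The median log2 fold change of the 8 was -0.65, beside 0.01 for all tested genes. Because the genes were chosen from this contrast, nothing is read from these counts. Leaving out 1 library at a time changed which isotypes were called. Tuba1b was called whichever of the 6 libraries was left out, with an adjusted p of 0.00770 to 0.0423. Tuba4a was called in 5 of those 6 fits and not without WT replicate 1 (adjusted p = 0.0665, edgeR), and Tubb5 in 4 of 6, not without WT replicate 1 or RBM3KO replicate 2. Tuba1c was called in 1 of the 6 fits, the one without RBM3KO replicate 1, and Tubb4b in 1, the one without WT replicate 3. In all 6, these 5 genes kept a negative log2 fold change. In number, 4 were called lower without WT replicate 3 and 4 without RBM3KO replicate 1, where 0.415% and 0.554% of all genes tested in those fits were. Without WT replicate 2, RBM3KO replicate 3 and RBM3KO replicate 2 in turn, 3, 3 and 2 were called lower, beside 0.407%, 0.716% and 0.254% of all genes. Without WT replicate 1, it was 1 of the 8, beside 0.0929% of all genes.

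**Figure D2:**
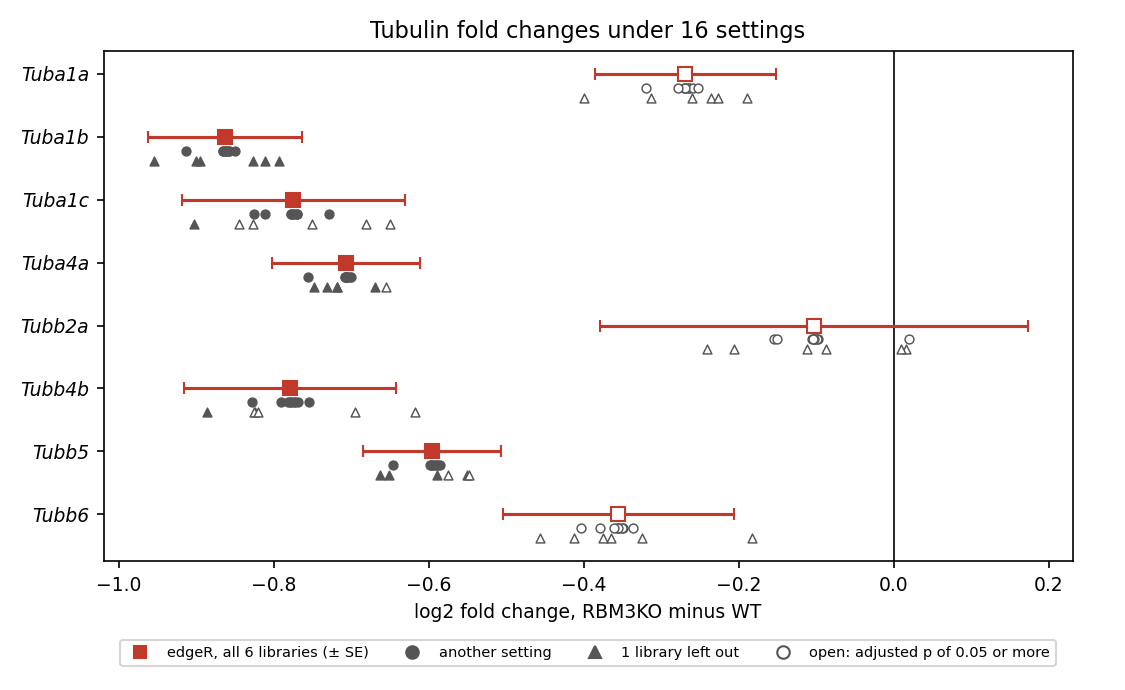
Log2 fold change (RBM3KO minus WT) of each tubulin in edgeR with all 6 libraries (red squares, bars show the SE), under 9 other settings (circles) and with 1 library left out (triangles). Filled symbols mark an adjusted p under 0.05, and Tuba1b is filled throughout, while Tuba1a, Tubb2a and Tubb6 are open throughout.

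Together the 8 genes took 0.354%, 0.313% and 0.314% of all counts in the RBM3KO libraries and 0.582%, 0.501% and 0.526% in the WT libraries. The sum of the 4 alpha members was 60.5% of its WT mean and that of the 4 beta members 65.4%. Alpha and beta transcripts are translated into the parts of a dimer, so their balance was also set out per transcript length, as CPM per kilobase of transcript. The sums for this balance, and for the shares of each pool below, took in all 6 alpha and 7 beta tubulin genes of the table. Per kilobase, the summed alpha level over the summed beta level was 1.06, 0.989 and 0.973 in RBM3KO and 1.08, 1.10 and 1.07 in WT. All 3 RBM3KO ratios lay below the WT ratios, by a small gap, and on this scale both genotypes were near parity. That level depends on the length used. Without length the ratio was 0.868, 0.814 and 0.820 in RBM3KO and 0.908, 0.917 and 0.878 in WT, again without overlap.

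Within the alpha pool Tuba1a took a larger share, and Tuba1b a smaller share, in each RBM3KO library than in each WT library. Tuba1a made up 21.2 ± 1.1% of the summed alpha level per length in RBM3KO and 15.6 ± 0.745% in WT, and Tuba1b made up 58.3 ± 0.473% and 64.1 ± 0.435% (RBM3KO and WT, SD, n = 3 each). Tuba1a had 0.395, 0.384 and 0.352 counts per count of Tuba1b in RBM3KO, against 0.239, 0.248 and 0.266 in WT, a ratio that needs no scaling between libraries. Most windows of both transcripts are shared with other genes, so the ratio also depends on how such reads were assigned, which was not tested. The shares of Tuba1c (8.78% in RBM3KO and 9.09% in WT) and Tuba4a (10.1% and 9.90%) overlapped between the genotypes. The size of the Tuba4a share depends on the length used, and without length it was 15.1% in RBM3KO and 14.9% in WT. In the beta pool Tubb5 made up 64.2 ± 2.20% in RBM3KO and 63.1 ± 1.83% in WT, with overlap, and the shares of Tubb4b (26.1% and 28.9%) and Tubb6 (7.99% and 6.66%) overlapped too. Tubb2a made up 1.57 ± 0.167% of the beta level in RBM3KO and 1.11 ± 0.229% in WT, and its 3 RBM3KO shares lay above its WT shares. These shares come from the same libraries as the fold changes and were not tested.

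**Figure D3:**
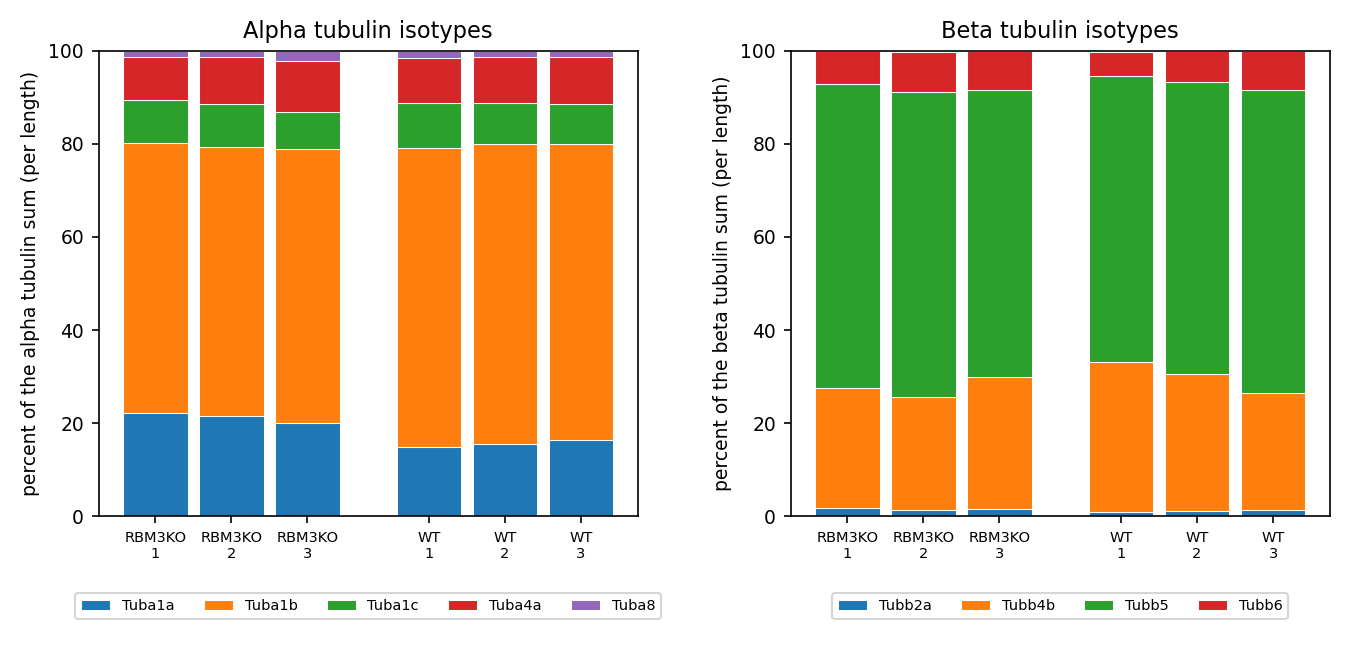
Share of each isotype in the summed alpha (left) and beta (right) tubulin level per transcript length, as percent, 1 bar per library with RBM3KO left of WT. The Tuba1a segment is larger in each RBM3KO library (20.03% to 22.2%) than in each WT library (14.9% to 16.3%), and Tubb3, Tubb4a, Tubb2b and Tuba3b are too low to be drawn.

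Ordered by level per kilobase of transcript, the same 2 isotypes led in both genotypes. In RBM3KO the order was Tubb5 at 514 CPM per kilobase, Tuba1b at 470.2, Tubb4b at 209, Tuba1a at 172, Tuba4a at 80.9, Tuba1c at 71.0, Tubb6 at 63.8 and Tubb2a at 12.7. The ranges of Tubb5 and Tuba1b overlapped, as did those of Tubb4b and Tuba1a, of Tuba4a and Tuba1c, and of Tuba1c and Tubb6, so these neighbours are not separated. In WT the order was Tuba1b at 855 CPM per kilobase, Tubb5 at 778, Tubb4b at 358, Tuba1a at 207, Tuba4a at 132, Tuba1c at 122, Tubb6 at 81.5 and Tubb2a at 13.6. There the ranges of Tuba1b and Tubb5 overlapped, as did those of Tuba4a and Tuba1c. The order depends on the length used, in the middle as well as at the top. Without length, Tuba1a and Tuba4a averaged 374 and 375 CPM in WT and 310 and 230 CPM in RBM3KO. Tubb5 made up 32.3% of the members' summed level in RBM3KO and 30.6% in WT by transcript length, but 41.2% and 39.3% by coding length, whereas Tuba1b made up 29.5% and 33.6% by transcript length and 24.4% and 28% by coding length. By coding length Tubb5 was thus first in both genotypes.

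Of the other tubulin genes, 9 were in the table and 7 were tested, and 0 of them were called by edgeR. At an unadjusted p under 0.05, 2 were lower and 0 higher, where 6.87% of all tested genes were lower. DESeq2 called 1 lower, beside 2.22% of its tested genes, and limma-voom 0. The exception under DESeq2 was Tubg1, the main gamma tubulin, which nucleates microtubules within the gamma-tubulin ring complex. Tubg1 stood at 191, 165 and 151 CPM in RBM3KO and 255, 242 and 219 CPM in WT, without overlap (edgeR adjusted p = 0.0859, log2 fold change -0.49, SE 0.12, DESeq2 adjusted p = 0.0123). Tuba8, known mainly from muscle and testis, had 28.2, 22.8 and 39.6 CPM in RBM3KO and 50.4, 35.8 and 41.7 CPM in WT, with overlap (edgeR adjusted p = 0.472, log2 fold change -0.50, SE 0.26). Tubd1 and Tube1, the delta and epsilon tubulins of centrioles, averaged 11.8 ± 2.30 and 10.8 ± 2.96 CPM in RBM3KO and 13.2 ± 6.76 and 12.5 ± 1.55 CPM in WT (SD, n = 3 each). Both overlapped between the genotypes. Tubb4a, a brain isotype, averaged 2.79 ± 1.11 CPM in RBM3KO and 3.51 ± 1.83 CPM in WT, and Tubg2, the minor gamma tubulin, 1.44 ± 0.871 CPM and 2.34 ± 2.90 CPM, both with overlap. Tubb3, the beta isotype used as a neuronal marker, had 0, 2 and 0 counts in RBM3KO and 11, 11 and 41 counts in WT, and did not pass the test (edgeR adjusted p = 0.403). Tubb2b had 0, 16 and 0 counts in RBM3KO and 3, 0 and 0 in WT, and Tuba3b had 0 counts in every library except for 1 count in WT replicate 3, so neither was tested.

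Genes that act on tubulin are set beside all tested genes, of which edgeR called 1.00% lower and 0.246% higher. At an unadjusted p under 0.05, 6.87% of all tested genes were lower and 5.46% higher. Of 20 tested genes of tubulin folding (the CCT chaperonin, prefoldin, the tubulin cofactors and Arl2), 0 were called in either direction by edgeR, DESeq2 or limma-voom, 2 were lower at an unadjusted p under 0.05, and the median log2 fold change was -0.09. The most abundant, the CCT subunits Cct7 and Cct5, averaged 805 ± 32.8 and 473 ± 30.7 CPM in RBM3KO and 957 ± 36.5 and 566 ± 9.93 CPM in WT (SD, n = 3 each), without overlap (edgeR adjusted p = 0.206 and 0.225). Ttc5, the autoregulation factor, had 188, 160 and 119 CPM in RBM3KO and 145, 107 and 113 CPM in WT, overlapping, with a log2 fold change of 0.35 (SE 0.18) and an adjusted p of 0.466 from edgeR. Scaper, also listed under autoregulation, had 2, 0 and 0 counts in RBM3KO and 6, 37 and 13 in WT, too few to be tested. Of 14 tested genes of tubulin modification, 0 were called by any of the 3 tools and 1 was lower at an unadjusted p under 0.05, with a median of -0.18. The tubulin deacetylase gene Sirt2 averaged 205 ± 21 CPM in RBM3KO and 180.4 ± 15.3 CPM in WT, and Ttll12, of the tubulin tyrosine ligase-like family, 68.0 ± 7.95 and 80.8 ± 1.55 CPM.

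Of 17 tested genes of microtubule nucleation, 0 were called by edgeR, 1 was called lower by DESeq2 and 0 by limma-voom, and 4 were lower at an unadjusted p under 0.05, with a median of -0.29. Of all tested genes, DESeq2 called 2.22% lower, and 6.87% were lower at an unadjusted p under 0.05. Haus4, of the augmin complex that branches microtubules, averaged 75.0 ± 3.27 CPM in RBM3KO and 113 ± 21.9 CPM in WT (log2 fold change -0.59, edgeR adjusted p = 0.129). Tubgcp2, of the gamma-tubulin ring complex, averaged 91.1 ± 25.0 and 96.0 ± 15.2 CPM. Of 17 tested genes of microtubule-associated, plus-end, destabilising and severing proteins, edgeR called 3 lower and 0 higher, with a median of -0.29. It called 1.00% of all tested genes lower and 0.246% higher. The estimate was below 0 in 12 of the 17 and above 0 in 5. In 5 of the 17 all RBM3KO libraries lay below all WT libraries, and in 2 above, as in 10.5% and 8.43% of all tested genes. Tacc3, which stabilises spindle fibres, had 60.1, 51.8 and 57.5 CPM in RBM3KO and 131, 105 and 129 CPM in WT (edgeR adjusted p = 0.00812, log2 fold change -1.10, SE 0.15). Stmn1, which binds free tubulin dimers and destabilises microtubules, had 249.9, 243 and 263 CPM in RBM3KO and 441, 341 and 369 CPM in WT (edgeR adjusted p = 0.0344, log2 fold change -0.61, SE 0.11). Prc1, which bundles microtubules of the spindle midzone, had 15, 14.3 and 17.5 CPM in RBM3KO and 61.7, 40.9 and 31.6 CPM in WT (edgeR adjusted p = 0.0381, log2 fold change -1.52, SE 0.29). The genotypes were fully separated in all 3. Of this list 0 genes were called without WT replicate 1, 2 without WT replicate 2 or 3, and 1 without each RBM3KO replicate in turn. Over all genes, 0.0929% were called lower without WT replicate 1 and 0.254% to 0.716% in the other fits.

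Cell cycle genes were lower in the same libraries. Of 25 tested, edgeR called 17 lower and 0 higher, where it called 1.00% of all tested genes lower and 0.246% higher. The median log2 fold change of the 25 was -1.01. The lowest p-values were those of Ccna2, Ube2c, Plk1 and Cdk1, regulators of S phase and mitosis. Ccna2 averaged 46.6 ± 4.18 CPM in RBM3KO and 128 ± 20.5 CPM in WT, and Plk1 26.8 ± 3.55 and 85.3 ± 8.80 CPM. The log2 fold changes of Ccna2, Ube2c, Plk1 and Cdk1 were -1.46, -1.55, -1.67 and -1.31 (SE 0.16 to 0.18, edgeR adjusted p = 0.00415 to 0.00531). The summed level of the 25 genes was 2956, 3149 and 3077 CPM in RBM3KO and 5874, 4947 and 4821 CPM in WT, beside 3539, 3125 and 3141 CPM and 5822, 5013 and 5260 CPM for the 8 tubulins. Without WT replicate 1, 3 of the 25 were called lower, and without WT replicate 2 or 3 there were 10. Without RBM3KO replicates 1, 2 and 3 in turn there were 9, 8 and 13. Over these fits 0.0929% to 0.716% of all genes were called lower. The part of cell division in the tubulin difference was not tested.

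Of 15 tested genes of the actin and intermediate filament cytoskeleton, 0 were called by edgeR, 1 was called higher by DESeq2 and 1 by limma-voom, and 4 were higher at an unadjusted p under 0.05. The shares of all tested genes were 1.27% for DESeq2, 0.492% for limma-voom and 5.46% for the unadjusted p. The median log2 fold change of the 15 was 0.15, and the estimate was above 0 in 13 of 15. Actb, which encodes beta actin, averaged 17170 ± 2062 CPM in RBM3KO and 14650 ± 629 CPM in WT, and Tmsb4x, which encodes the actin-binding thymosin beta 4, had 7855, 8588 and 9181 CPM in RBM3KO and 7303, 6958 and 6712 CPM in WT. Tmsb4x was separated between the genotypes but did not pass the test (edgeR adjusted p = 0.121, log2 fold change 0.29, SE 0.08).

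**Figure D4:**
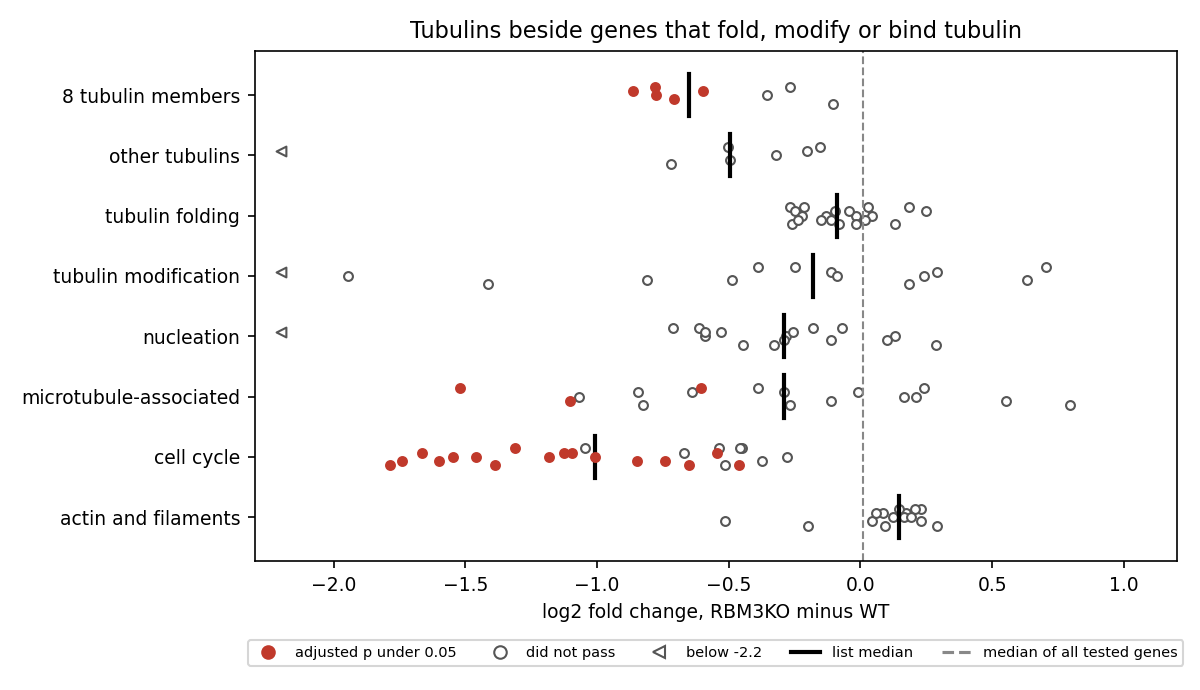
Log2 fold change (RBM3KO minus WT) of each tested gene of the 8 tubulins and of the lists around them, 1 row per list, with the list median as a black bar and the median of all tested genes (0.01) as a dashed line. Filled points passed the test, 5 among the tubulins, 3 among the microtubule-associated genes and 17 among the cell cycle genes, and arrowheads mark genes below the axis.

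Markers of other cell types were mostly low, and 0 of them were called by edgeR. The 5 markers of B and plasma cells in the table summed to 38.3 to 42.3 CPM in RBM3KO and 61.3 to 88.6 CPM in WT, with Igj at 0 in all RBM3KO libraries. DESeq2 called 2 of these 5 markers lower, beside 2.22% of its tested genes. Their part in the tubulin difference was not tested. Of the markers of ciliated cells, which are rich in Tubb4b, the defining factor Foxj1 was at 0 in 5 of 6 libraries and at 0.0588 CPM in WT replicate 2. Rsph1 had 0, 1.075 and 3.23 CPM in RBM3KO and 1.48, 1.29 and 1.41 CPM in WT. Tppp3 was present in every library, at 26.9, 33.9 and 31.6 CPM in RBM3KO and 43.9, 40.5 and 22.3 CPM in WT. Rsph1 and Tppp3 overlapped between the genotypes. The part of ciliated cells in the Tubb4b difference was not tested. Markers above 100 CPM in a library were Cd3g, which encodes a CD3 chain of the T cell receptor complex, at 163, 313 and 252 CPM in RBM3KO and 145, 194 and 193 CPM in WT, and the surfactant gene Sftpc, at 9.59, 7.82 and 248 CPM in RBM3KO and 14, 75.7 and 6.74 CPM in WT. Lyz2 of macrophages reached 135 CPM in WT replicate 3. None of these 3 separated the genotypes.

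Promoter sequence was set beside the calls for the genes whose start is the same, or nearly so, in RefSeq and GENCODE. The 250 bases before the start are printed for Tubb4b (chr2:25224703-25224952, minus strand), Tubb5 (chr17:35838302-35838551, minus strand) and Tuba1c (chr15:99029641-99029890, plus strand), which were called lower, and for Tubb2a (chr13:34078009-34078258, minus strand), which was not. The printed set was limited by these start positions and does not stand for all members, whose counts of CCAAT are given after the sequences. Sequences are from RefSeq (build GRCm38.p6), 5′ to 3′ in the direction of transcription. Capitals mark each match on either strand of CCAAT, the box bound by the factor NF-Y, of the cell cycle homology region written as TTTGAA or TTCGAA, of TATAAA and of GGGCGG, with reverse matches shown as ATTGG or CCGCCC.
Tubb4b: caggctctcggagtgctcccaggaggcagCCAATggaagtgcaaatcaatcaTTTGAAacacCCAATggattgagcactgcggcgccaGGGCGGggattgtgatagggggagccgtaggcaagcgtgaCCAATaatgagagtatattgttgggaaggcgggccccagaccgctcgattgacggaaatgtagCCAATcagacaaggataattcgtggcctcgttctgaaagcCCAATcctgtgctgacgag
Tubb5: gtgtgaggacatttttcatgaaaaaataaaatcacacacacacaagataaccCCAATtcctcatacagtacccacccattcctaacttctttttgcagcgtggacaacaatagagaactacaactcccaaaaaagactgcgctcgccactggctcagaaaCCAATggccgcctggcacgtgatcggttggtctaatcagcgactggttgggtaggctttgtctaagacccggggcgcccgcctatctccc
Tuba1c: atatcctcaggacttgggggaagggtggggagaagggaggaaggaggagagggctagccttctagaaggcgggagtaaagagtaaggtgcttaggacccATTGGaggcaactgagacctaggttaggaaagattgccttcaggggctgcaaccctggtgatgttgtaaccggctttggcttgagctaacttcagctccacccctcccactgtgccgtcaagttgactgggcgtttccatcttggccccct
Tubb2a: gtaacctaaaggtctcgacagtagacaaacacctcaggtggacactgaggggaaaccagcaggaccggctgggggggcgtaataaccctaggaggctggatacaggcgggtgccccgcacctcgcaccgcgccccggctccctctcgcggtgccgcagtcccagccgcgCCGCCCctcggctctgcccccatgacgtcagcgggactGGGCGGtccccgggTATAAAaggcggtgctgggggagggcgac

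The Tubb4b window held 5 CCAAT boxes on the printed strand, the first base of each 221, 188, 122, 59 and 19 bases before the start, and 1 TTTGAA at 198 bases. Tubb5 held 2 CCAAT boxes, at 198 and 90 bases, and Tuba1c held 1 in reverse at 151 bases. The Tubb2a window held 0 CCAAT boxes, 1 TATAAA at 29 bases and 2 GGGCGG matches. Of the 8 tubulins, 7 had their promoter examined, as Tubb6 on chromosome 18 was left out, and CCAAT occurred in 4 of these. In their RefSeq windows, Tuba1b and Tuba4a, which were called lower, held 0 CCAAT boxes, and Tuba1a, which was not called, held 1. The windows of Tuba1b (chr15:98934391-98934640) and Tuba1a (chr15:98953502-98953751) lay partly inside the GENCODE gene, and that of Tuba4a (chr1:75219295-75219544) wholly. These windows may therefore not be the promoters by the GENCODE starts. Whether CCAAT goes with the calls was not tested. Of the 7, TATAAA occurred in 1, GGGCGG in 5 and the cell cycle homology letters in 1. Among all 32851 promoters of the table, 33.8% held CCAAT, 12.4% TATAAA, 32.7% GGGCGG and 17.1% the cell cycle homology letters, and 10.1% held CCAAT at least 2 times, as Tubb4b and Tubb5 did. A match of letters is a description and not a bound site.

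The genes whose profile over the 6 libraries was closest to each tubulin were ranked by the root mean square difference of centred log2 CPM among 7222 genes with a mean of at least 10 CPM. For Tuba1b these were Phgdh, Ccne1 and Uhrf1 (0.06 to 0.08), with Tuba1c the nearest tubulin at rank 5. For Tuba1c they were Chaf1a, Dbf4 and Wdr41 (0.07 to 0.09), with Tuba1b at rank 7. Tuba4a was nearest to Rfc5, Fam108a and Phgdh (0.04 to 0.07), with Tubb5 at rank 8, and Tubb5 to Mcm5, Ruvbl2 and Dtymk (0.04 to 0.07), with Tuba4a at rank 4. Tubb4b was nearest to Rpa2, Znhit3 and Dbf4 (0.08 to 0.10), with Tuba4a at rank 13. Such profiles largely restate the difference between the genotypes, and a rank depends on how many genes share that difference, so distances are given beside the ranks. The nearest member lay at 0.09 for Tuba1b and Tuba1c, 0.08 for Tuba4a and Tubb5 and 0.13 for Tubb4b, and at 0.17 (rank 613) for Tuba1a, 0.19 (rank 677) for Tubb2a and 0.21 (rank 634) for Tubb6. The closest genes were Jagn1, Mrpl40 and Smap2 for Tuba1a, Psph, Ftsj1 and Oaz2 for Tubb2a, and Rqcd1, Psmd5 and Cd320 for Tubb6.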

How the data were processed

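The authors deposited raw read counts per gene symbol, 1 column per library and 0 columns of other samples. Per the submitters' processing notes, the tools were featureCounts 1.6.5, STAR 2.6.1c and Bowtie 1.0.0 and the build was mm10, without their roles. Per the labels' protocols, polyA RNA was amplified by Smart-seq2 and made into Nextera XT libraries, which carry no molecular identifiers in the standard form, so PCR copies are counted. Annotation, strand setting and treatment of reads with several matches were not given in the sources used here.

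Genes and gene lists were chosen with earlier results of these data known. Counts were filtered with filterByExpr by genotype (11382 genes, 99.9% of counts), scaled by TMM and fitted with edgeR 4.0.16 (R 4.3.3, robust quasi-likelihood test, 3 RBM3KO against 3 WT, no covariate, Benjamini-Hochberg over all tested genes, threshold 0.05). The standard error (SE) is the log2 fold change divided by the square root of F. The steps were tested on simulated data. With 3 libraries on each side, the smallest exact permutation p for a single value is 0.1. Libraries were all distinct (lowest chi-square per degree of freedom 21.5 between any pair). Lengths, positions and 50-base windows came from GENCODE M21, taking for each gene its basic transcript of longest coding sequence, and promoters from RefSeq. Protein sequences were not used here, so identity is of coding bases. Genes named are all tubulins in the table, up to 4 called genes per list with the lowest p or else the 2 most abundant, the 3 nearest profiles per member and markers above 100 CPM. Igj, Foxj1, Tppp3 and Rsph1 were named, and Ccna2 and Plk1 given in full, after their values were seen. Alternatives were RLE factors, no scaling, no filter, 10 CPM in 3 libraries, DESeq2 1.42.0, limma-voom (limma 3.58.1), a non-robust fit, a replicate block, equal depth and each library left out.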

Additional observations from a re-analysis of the deposited data

How the results depend on the processing

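All 9 settings that keep every library called the same 5 tubulins lower and 0 higher, the replicate block included (5 lower). With 1 library left out, 1 to 4 were called lower, from fits with 1 genotype at 2 libraries. Of 120 tubulin fold changes under the alternatives, 107 kept their direction where called and their side of the threshold, 13 calls ended, all with a library left out, and 0 were gained or reversed. Tubb2a, never called, had estimates just above 0 at equal depth (0.02) and without WT replicate 3 (0.02) or RBM3KO replicate 2 (0.01). Tubg1 was called with no scaling (adjusted p = 0.0489, edgeR), the filter of 10 CPM (0.0455) and DESeq2 (0.0123), which makes 1 other tubulin called lower in each, and in no other setting (up to 0.348). DESeq2 also called 1 nucleation gene lower and 1 actin gene higher, and limma-voom 1 actin gene higher. With a library left out, 0 to 2 microtubule-associated and 3 to 13 cell cycle genes were lower. Over all genes, 114 were lower and 28 higher, against 276 and 158 with DESeq2, 16 higher with no scaling, 48 with no filter, 59 with the 10 CPM filter and 56 with limma-voom, and 11 to 85 lower and 1 to 18 higher with a library left out. Correlations of deviations between RBM3KO and WT libraries of equal replicate number were low, at 0.06, 0.09 and 0.04, although each library correlated best with its own number. Those of unequal number lay between -0.06 and 0.005. Whether the replicate numbers pair the libraries was not tested. Coding length was added as an alternative after seeing the data. The longest transcript had the length already used for each of the 8, so the levels could not differ and this alternative tested nothing. Counts without length put Tubb5 first at 41.0% in RBM3KO and 39.0% in WT. The causes of these changes were not tested. Each of the 8 tubulins had at least 148 counts in a library. Tubb2b and Tuba3b were too low to be tested, and Tubb3, at 0 to 2 counts in RBM3KO and 11 to 41 in WT, had an unadjusted p of 0.0487 in edgeR.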
